A study of Mus musculus with 6 samples.

Results

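The regions described here are stretches of open chromatin away from promoters that were more accessible in mouse nephron progenitors at birth than in the embryo. They were chosen by a rule on the measured values. From the distinct regions of the deposited table the 10 with the most counts were dropped, counts were scaled to the remaining total of each library (counts per 1000000, CPM), and an autosomal region with no promoter annotation was kept when its lowest P0 CPM was at least 25% above its highest E14.5 CPM. The rule kept 1391 regions, 4.89% of the 28472 autosomal distal regions, out of 43523 distinct regions in all. Of autosomal regions with a promoter annotation, 114 of 13546 met the same threshold (0.842%). Because the rule used these values, the levels of the kept regions at the 2 stages are a description and carry no test.

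Chromatin accessibility was measured by ATAC-seq, in which Tn5 transposase inserts sequencing adapters into DNA not covered by nucleosomes. All 6 libraries came from mice of the CD1 strain, 3 from embryos at E14.5 and 3 from pups on the day of birth (P0), and no treatment or altered allele is named in the labels. For each library up to 24 kidneys of a litter were pooled, cells were selected with antibodies against the integrin Itga8 on magnetic beads, and 50000 cells were used. Replicates are litters, so the spread between libraries covers litters, isolations and sequencing together.

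Nephron progenitors are the mesenchymal cells that cap the tips of the ureteric tree in the fetal kidney. They either renew or turn into the epithelium of the nephron, in answer to Wnt, Fgf, Bmp and Notch signals, and the pool is exhausted shortly after birth in the mouse. Open distal regions include enhancers, which can lie far from the gene they act on, so the nearest gene named below is a position and not a shown target.

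No genome sequence of the build was used, and sequence inside the regions is shown only where a RefSeq window (assembly GRCm38.p6) reached into one. The sequences were chosen after the values were seen. Some lie at genes or clusters described below, but Gm39160 and Gm52763 do not. Windows in other regions, some with no match to the letters searched, are not printed. The mature microRNAs encoded within 20 kb of a region more open at P0 included a pair of the miR-181 family with one seed, next to the region chr1:137954929-137956144, and 2 single microRNAs on chromosome 16 beside the Robo2 and Ccdc54 clusters. Capitals mark the seed, bases 2 to 8 from the 5′ end.
mmu-miR-181a-5p: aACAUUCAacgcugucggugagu
mmu-miR-181b-5p: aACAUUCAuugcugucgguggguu
mmu-miR-691: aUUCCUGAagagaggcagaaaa
mmu-miR-6363: uGUAGACUggacuguccucaaa

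The hairpin of miR-181a-1 lies at chr1:137966455-137966541 and that of miR-181b-1 at chr1:137966639-137966718, both on the plus strand and about 11 kb from the region. miR-181 microRNAs are known from lymphocyte and vascular biology. This region had 8.35, 17.6 and 10.4 CPM in the E14.5 libraries and 27.8, 25.9 and 25 CPM in the P0 libraries, 2.17 times as much on average. All P0 libraries lay above all E14.5 libraries, among which replicate 2 was the highest. miR-691, on the minus strand at chr16:74341990-74342067, lies inside Robo2, and miR-6363, on the plus strand at chr16:50727132-50727245, lies 9.53 kb from a region assigned to Ccdc54.

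A few of the regions also hold the start of a non-coding transcript, and the 250 bases before that start are printed 5′ to 3′ on the strand of the transcript. In the first 3, capitals mark matches on either strand, none of which overlap each other. Forkhead factors were searched for with the letters TGTTTAC. Sox factors were searched for with the letters ACAATGG. The Gata family was searched for with GATAAG, and AP-1, the Fos and Jun dimer, with TGANTCA. In the last, capitals mark matches listed in the deposited table for Maz, Sall1 and Meis2. A match is a description and not a binding site.
Gm39160: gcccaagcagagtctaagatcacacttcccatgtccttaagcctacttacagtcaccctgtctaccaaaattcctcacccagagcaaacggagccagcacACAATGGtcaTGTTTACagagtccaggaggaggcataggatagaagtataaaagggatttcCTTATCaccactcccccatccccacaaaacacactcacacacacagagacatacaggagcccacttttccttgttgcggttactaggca
Gm52763: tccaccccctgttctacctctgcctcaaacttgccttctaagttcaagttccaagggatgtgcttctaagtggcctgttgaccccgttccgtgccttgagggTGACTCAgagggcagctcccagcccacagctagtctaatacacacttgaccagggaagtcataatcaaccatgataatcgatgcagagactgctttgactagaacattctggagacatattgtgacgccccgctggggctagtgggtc
4930487H11Rik: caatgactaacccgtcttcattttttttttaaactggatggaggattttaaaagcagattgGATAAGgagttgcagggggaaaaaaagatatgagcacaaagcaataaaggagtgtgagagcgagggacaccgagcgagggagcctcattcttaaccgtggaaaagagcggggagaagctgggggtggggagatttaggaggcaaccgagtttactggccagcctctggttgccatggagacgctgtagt
Gm40513: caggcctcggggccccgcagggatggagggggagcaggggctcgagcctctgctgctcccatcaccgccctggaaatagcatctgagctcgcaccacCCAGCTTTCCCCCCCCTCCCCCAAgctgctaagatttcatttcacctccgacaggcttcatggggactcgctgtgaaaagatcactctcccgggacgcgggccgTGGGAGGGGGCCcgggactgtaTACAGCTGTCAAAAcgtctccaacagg

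The Gm39160 sequence is chr8:34473000-34473249 on the minus strand, in an intergenic region with 11.5, 16.3 and 12.3 CPM at E14.5 and 23.6, 29.5 and 29.3 CPM at P0. The Gm52763 sequence is chr5:20681594-20681843 on the minus strand, in an intron or other non-exonic part of Magi2, which encodes a scaffold protein of cell junctions. The 4930487H11Rik sequence is chr1:62794733-62794982 on the minus strand, within Nrp2, in the last of the 3 clustered regions there. The Gm40513 sequence is chr9:41890550-41890799 on the minus strand, in an intergenic region that carries a VISTA element of the deposited table (VISTA collects elements tested for enhancer activity in transgenic mouse embryos) and had 15.5, 18.8 and 17.2 CPM at E14.5 and 23.8, 25.7 and 27.3 CPM at P0. Among the 32817 RefSeq windows of 250 bases, the forkhead letters were found in 3.16%, those of Sox in 3.02%, those of Gata in 6.55% and those of AP-1 in 6.75%.

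Over all 1391 regions the median level was 8.35, 9.18 and 7.49 CPM in the E14.5 libraries and 16.6, 16.8 and 15.0 CPM in the P0 libraries. Over all autosomal distal regions the medians ran from 12.3 to 13.4 CPM at E14.5 and from 12.3 to 15.4 CPM at P0. The regions more open at P0 were thus below the typical distal region in every E14.5 library and above it in every P0 library. They took 1.23% to 1.54% of the counts at E14.5 and 2.45% to 2.73% at P0.

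**Figure D1:**
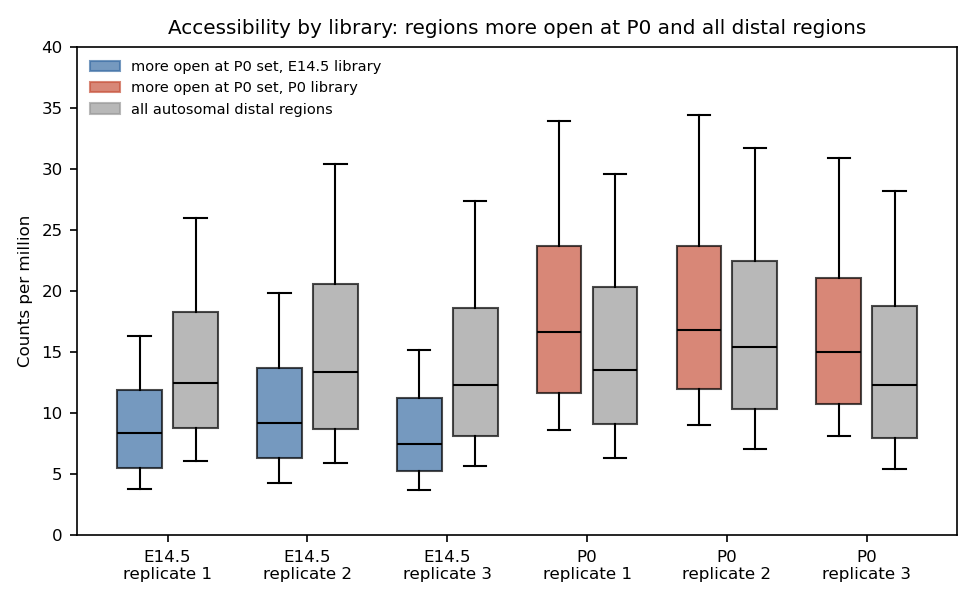
Accessibility in CPM (vertical axis) in each of the 6 libraries, for the 1391 regions more open at P0 (blue for E14.5 libraries, red for P0 libraries) and for all 28472 autosomal distal regions (grey). Boxes span the 25th to 75th percentile with the median, and whiskers the 10th to 90th; the medians of the chosen regions are 7.49 to 9.18 at E14.5 and 15.0 to 16.8 at P0.

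The ratio of the mean P0 level to the mean E14.5 level had a median of 1.91 and ran from 1.31 to 25.9. It reached 2 in 562 regions (40.4%), 3 in 34 and 4 in 5. E14.5 replicate 2 was the highest E14.5 library in 844 regions (60.7%) and P0 replicate 3 the lowest P0 library in 736 (52.9%), so these 2 libraries set whether a region met the rule more often than any other. Just inside the rule lay regions near Strn3, Adgrl1 and Prag1, with lowest P0 to highest E14.5 ratios of 1.25010, 1.25012 and 1.25048, and just outside it regions near Igfbp7, Zmiz1 and Dyrk1b, at 1.24979, 1.24979 and 1.24978.

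The widest gap between the stages was inside Plch1, which encodes a phospholipase C that releases calcium-mobilising messengers. The region chr3:63878408-63879940, outside exons, had 7.41, 7.49 and 3.81 CPM at E14.5 and 35.5, 25.2 and 32.4 CPM at P0, so its lowest P0 library was 3.362 times its highest E14.5 library. A region of 498 bp at chr3:35680482-35680979, 73.3 kb from the start of Atp11b (a phospholipid-transporting ATPase), had 1.89, 1.10 and 1.31 CPM at E14.5 and 49.7, 55.2 and 6.33 CPM at P0. It has the largest ratio of means, 25.9, but its P0 libraries disagree: replicate 3 was far below replicates 1 and 2. An exonic region of Mocs2, which is needed for the molybdenum cofactor, had 3.23, 3.19 and 2.89 CPM at E14.5 and a mean of 12.7 ± 1.96 CPM at P0 (SD, n = 3), in a range that began at 10.6.

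An intergenic region 130.7 kb from Bod1, a gene of chromosome alignment in mitosis, had 9.83, 9.98 and 9.72 CPM at E14.5 and 33.1, 34.8 and 29.8 CPM at P0, with little spread within either stage. A region 193.3 kb from Actr3, which encodes a subunit of the actin-nucleating Arp2/3 complex, had 8.49, 8.38 and 7.88 CPM at E14.5 and 35.8, 36.0 and 24.6 CPM at P0. An exonic region of Jade1, a subunit of a histone acetyltransferase complex, had 5.66, 6.39 and 5.52 CPM at E14.5 and 20.1, 17.7 and 19.2 CPM at P0. The gap between the stages in these regions is what they were named for.

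Other regions of the 20 with the widest gap lay at genes of different kinds. A region 16.5 kb from Cdh6, a cadherin of the early nephron epithelium, had 4.72, 3.69 and 4.73 CPM at E14.5 and 13.8, 12.3 and 12.3 CPM at P0. A region 231.9 kb from Igfbp3, which binds insulin-like growth factors outside the cell, had 7.95, 8.18 and 4.60 CPM at E14.5 and 26.0, 23.0 and 18.1 CPM at P0. A region inside Il1r1, the receptor for interleukin 1, had 4.98, 7.19 and 4.47 CPM at E14.5 and 17.8, 21.0 and 20.7 CPM at P0. The others of the 20 lay near 4930583I09Rik, Eepd1, Robo1, Gm52217, P2ry1, Col15a1, Ddx1, Zdhhc5, Tacr1, Cep44 and Ccser2, with ratios of means from 2.56 (Robo1) to 4.08 (4930583I09Rik).

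**Figure D2:**
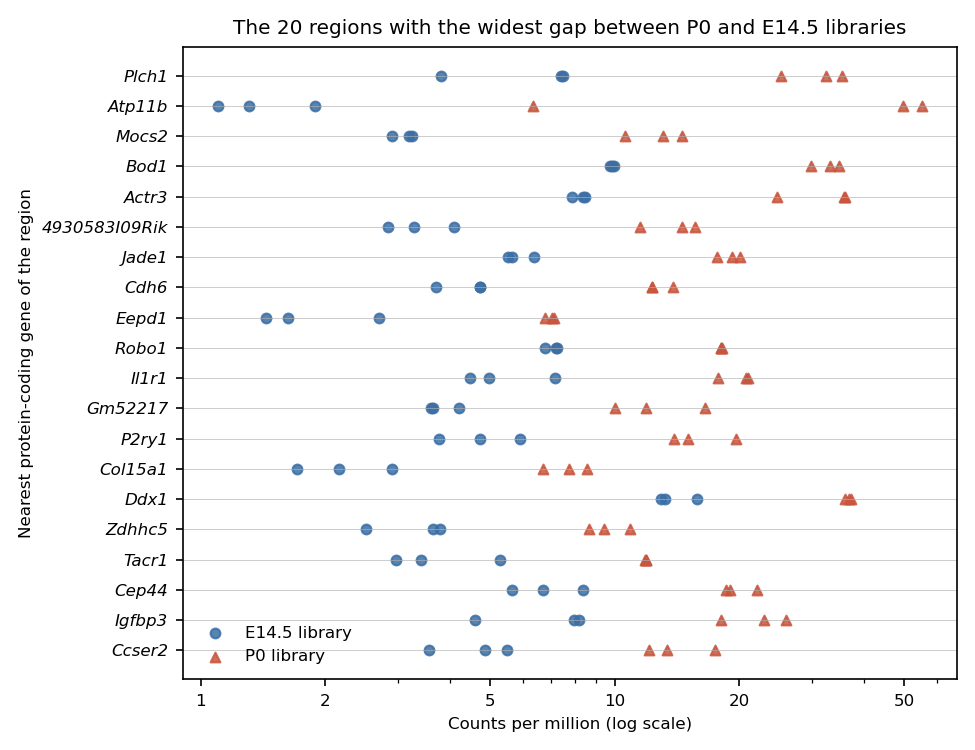
The level in CPM on a log axis (horizontal) for the 20 regions with the largest ratio of lowest P0 to highest E14.5 library, each named by its nearest protein-coding gene (vertical); circles are the 3 E14.5 libraries and triangles the 3 P0 libraries. In the Atp11b region P0 replicate 3 (6.33) lies far below the other P0 libraries (49.7 and 55.2).

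The regions more open at P0 lay inside genes more often than distal regions as a whole. By the table's annotation 50.3% of them were in a gene (95% Wilson interval 47.6% to 52.9%), against 42.7% of all autosomal distal regions and 35.5% of the 1462 distal regions that met the mirror rule (lowest E14.5 library at least 25% above the highest P0 library, 5.13% of distal regions), called less open at P0 below. Exons held 9.71% of them, against 5.06% of the less open and 8.52% of all. Their median distance to the nearest protein-coding start site was 62.9 kb, against 146 kb for the less open and 69.3 kb for all. Only 5.18% lay over 500 kb from any start site, against 16.9% of the less open and 7.44% of all. The comparisons of location count regions, which are not replicates, and carry no test.

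Each region was assigned to the protein-coding gene with the nearest start site within 500 kb. By this assignment 1060 genes had at least 1 region more open at P0, out of 8072 with any distal region. Of these, 868 had 1, 147 had 2 and 45 had at least 3, and the 45 held 157 regions in all. The number with at least 3 depends on the settings: it was 56 to 396 without 1 library, 10 with a start site within 100 kb and 4 with the ratio raised to 1.5. Less open regions numbered at least 3 at 48 genes, and 26 of the 45 genes had no less open region.

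Robo2 had more such regions than any other gene, and its neighbour Robo1 was among the leading 5, when all 6 libraries were used. The order of genes changes with the libraries. Robo2 had 7 against 11 at Ccdc54, 10 at Tbl1xr1 and 10 at Tns3 without E14.5 replicate 2, 8 against 9 at Tbl1xr1 without P0 replicate 2, and 7 against 10 at Tbl1xr1 without P0 replicate 3. Leaving out 1 library can only add regions at a gene, and Tns3 went from 4 up to 10 and Mycn from 4 up to 9. Robo1 and Robo2 encode receptors for the secreted Slit proteins, which repel growing axons, and Slit and Robo2 are known to restrict the domain of Gdnf expression beside the nephric duct. Robo2 was nearest to 30 distal regions, of which 7 were more open at P0 and 0 less open; Robo1 was nearest to 18, of which 5 were more open and 1 less open. All 7 at Robo2 lay within the RefSeq span of the gene, although the deposited annotation, in which the gene is shorter, calls some of them intergenic.

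Among the 12 regions, the one inside Robo1 at chr16:72717189-72718229 had 7.27, 6.79 and 7.22 CPM at E14.5 and 18.2, 18.1 and 18.1 CPM at P0. One inside Robo2 at chr16:74348478-74348946 had 5.25, 5.59 and 3.81 CPM at E14.5 and 12.5, 10.9 and 12.5 CPM at P0. The most accessible of the 12 at P0, chr16:74514023-74515381, had 17.4, 23.8 and 15.1 CPM at E14.5 and 35.5, 30.6 and 35.7 CPM at P0. The P0 and E14.5 libraries did not overlap in any of the 3, as the rule requires.

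The ratios of means of the 12 regions ran from 1.60 to 2.56, with a median of 1.92. The other 36 distal regions of both genes had a median ratio of 1.12, from 0.477 to 1.85, and 25 of them had a higher mean at P0. Along the locus the 12 regions lay among the other 36 and were not contiguous. At the Robo2 start site furthest upstream the open region had means of 41.2 CPM at E14.5 and 46.6 CPM at P0, and it was not among the 12. A pair of regions downstream of Robo1, at chr16:73100074-73101405 and chr16:73104979-73106428, were more open at P0 by ratios of 2.22 and 1.95. Both carried a listed motif of Six2, a transcription factor that maintains the progenitors. So did chr16:74701150-74702720 of the 12, and chr16:72411423-72414197 (ratio 0.956) and chr16:74636995-74639095 (1.64) of the other 36. Over the series the motif was listed in 3.52% of the regions more open at P0 and 3.21% of all distal regions.

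**Figure D3:**
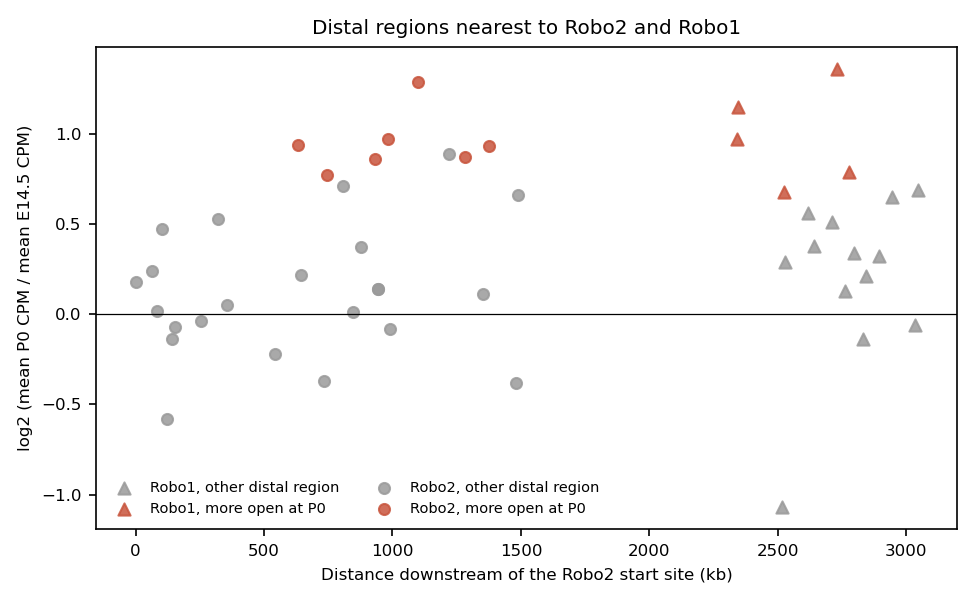
Log2 ratio of mean P0 to mean E14.5 CPM (vertical axis) for the 48 distal regions nearest to Robo2 (circles) and Robo1 (triangles), against distance downstream of the Robo2 start site in kb (horizontal axis); red marks the 12 regions more open at P0. The red points run from 0.68 to 1.36 and are spread among grey points that lie on both sides of 0.

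The 1 Mb window with the most regions more open at P0, chosen after seeing the data, was the one over Robo2, with 7 of its 18 distal regions and 0 less open. Of 2400 windows with a distal region, 14 held at least 5 regions more open at P0, and 12 of the 14 held no less open region. Windows with at least 5 less open regions numbered 8. Chromosome 15 supplied 4 of the 14, over Pdzd2, Npr3, Sema5a and neighbouring genes.

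At a smaller scale, 213 of the 1391 regions (15.3%) had another within 50 kb, against 10.5% of the less open regions. Within 25 kb the shares were 9.20% and 4.31%, and within 100 kb 23.3% and 20.6%. These counts include regions listed more than once with different ends, and merging overlapping regions (7 and 1; for the less open set chosen after seeing the data) gave 14.4% and 10.3% within 50 kb, 8.24% and 4.18% within 25 kb and 22.4% and 20.5% within 100 kb. With the rule applied to any 5 libraries, which keeps more regions, the share within 50 kb was 16.8% to 32.6%. The 2 sets are of similar size, 1391 and 1462, but they were not matched for position. Their median distance to a start site was 62.9 and 146 kb, and chromosome 15 held 8.85% and 4.38% of its distal regions in them. The shares are therefore a description only. Neighbours come in groups and are not independent, so no interval is given. Linking regions at most 50 kb apart gave 1178 single regions, 93 pairs, overlapping regions included, and 9 groups of 3, and no larger group.

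The groups of 3 included one inside Nrp2, which encodes a co-receptor for semaphorins and for a vascular endothelial growth factor. Its 3 regions, spanning 44.5 kb, had 12, 10.5 and 10.4, then 10.9, 14.3 and 6.43, then 8.22, 5.49 and 6.96 CPM at E14.5. The same 3 had 19.3, 18.7 and 21.9, then 26.3, 21.2 and 19.4, then 13.5, 10.7 and 11.4 CPM at P0, and they were the only distal regions in the span. Inside Plch1, 3 regions within 26.7 kb had ratios of 2.13, 4.98 and 2.88, and the first carries a VISTA element. Inside Tacr1, the receptor for substance P, 3 regions within 18.3 kb had ratios from 1.67 to 3.05, and inside Tenm3, which encodes a teneurin that joins cells across a contact, 3 regions within 56.1 kb had ratios from 1.65 to 2.70. The other groups described here lay near Spred2 (20.5 kb), across Ccnjl and Fabp6 (29.3 kb) and around Smim20 (70.0 kb), the widest.

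Other genes with several regions belong to different pathways. Ccdc54 had 6 of 19 distal regions, Tbl1xr1 6 of 25 and Tenm3 5 of 16. Ccnl1 and Spred2 had 4 of 12 each, Trib2 4 of 15 and Clvs1 4 of 17. Mycn had 4 of 19, Adamtsl1 4 of 22 and Tns3 4 of 25. Less open regions numbered 2 each at Tbl1xr1 and Tns3, 1 each at Trib2, Clvs1 and Adamtsl1, and 0 at the others. Over all genes the share more open was 5.01%, and these genes were picked for their counts. Tbl1xr1 encodes a subunit of nuclear receptor co-repressor complexes, Ccnl1 a cyclin linked to splicing, Trib2 a pseudokinase, Clvs1 a vesicle protein of the clathrin pathway, and Azin1, with 3, an inhibitor of antizyme in polyamine metabolism. Arhgap21, Chrm3, Jade1 and Pdzd2 also had 3, of 8 distal regions each. Tacr1 had 3 of 7, and Smim20 and Azin1 3 of 6 each. Chrm3 and Tacr1 had 1 less open region each.

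Mycn, a transcription factor of progenitor growth, was nearest to 4 regions of 19, with 0 less open. The nearest of them, 25.3 kb from the start site, had 15.2, 18.9 and 14.7 CPM at E14.5 and 28.3, 32.4 and 25.4 CPM at P0. A second, 37.3 kb away, had 23.0, 21.8 and 16.5 CPM at E14.5 and 35.1, 29.5 and 38.1 CPM at P0. A pair about 300 kb away had ratios of 2.22 and 1.90. The stages do not overlap in any of the 4, and the difference is about as large as at the median region.

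Spred2 and Spry2, which dampen Ras and ERK signalling downstream of Fgf and other receptor tyrosine kinases, had 4 regions of 12 and 3 of 14. At Spred2 the region 89.1 kb from the start had 3.77, 6.49 and 6.96 CPM at E14.5 and 8.82, 12.3 and 11.5 CPM at P0. At Spry2 the 3 regions lay 228.0 to 313.0 kb away, with ratios from 1.49 to 1.95, and 2 other distal regions were less open. In the list of Fgf and receptor tyrosine kinase feedback genes as a whole, 9 of 151 distal regions were more open (5.96%) and 15 less open (9.93%), the opposite order to these named genes.

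Across 27 gene lists the share of distal regions more open at P0 was read against 5.01% over all genes, with 4.61% less open. The lists overlap, and they were drawn up with earlier results of these data known. The axon guidance list stood at 35 of 348 (10.1%), with 22 less open (6.32%). Without Robo2 its share was 8.81%. After Robo2 and Robo1 came Nrp2 with 3 of 10 and the semaphorin gene Sema5a with 3 of 11. The Slit ligand genes Slit2 and Slit3 had 2 each. Those of Slit3 lay inside the gene, and a Slit2 region lay 460.5 kb from the start site.

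**Figure D4:**
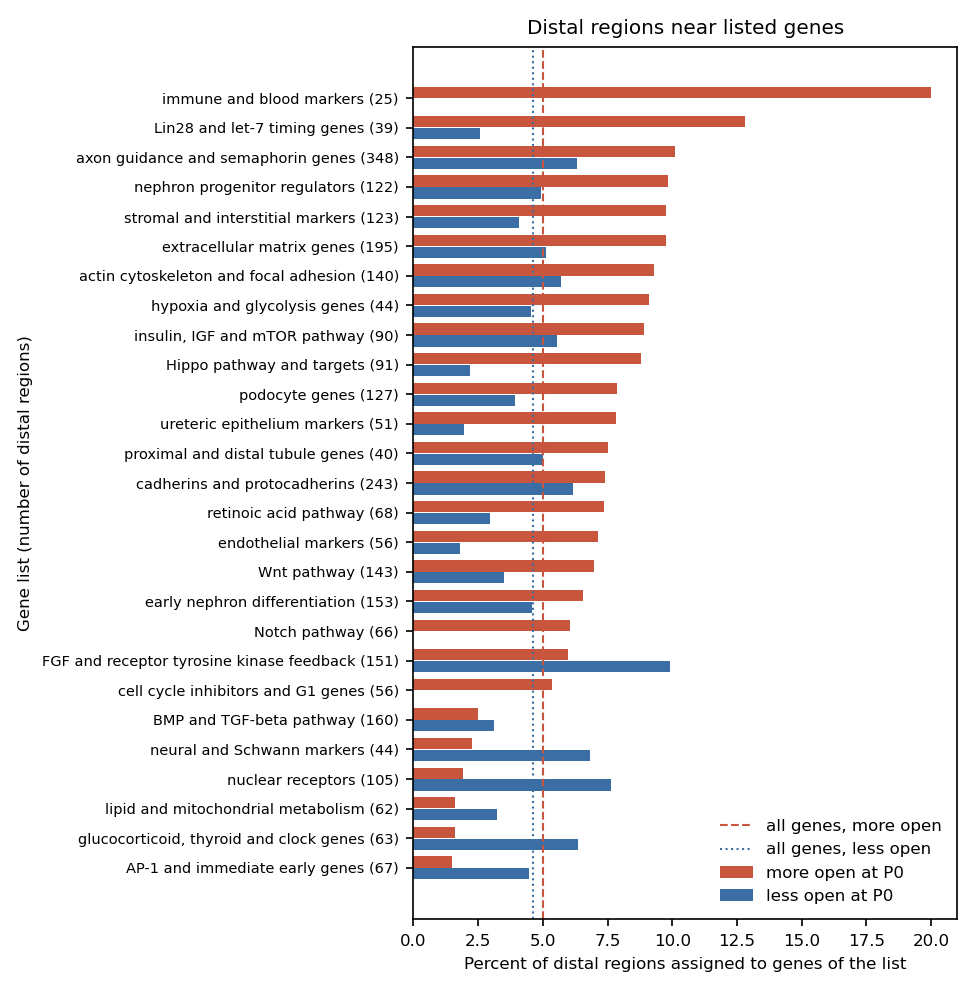
Percent of the distal regions assigned to genes of each list (horizontal axis) that were more open at P0 (red) or less open at P0 (blue), for 27 gene lists with their number of distal regions in brackets. Dashed and dotted lines mark 5.01% and 4.61%, the shares over all genes; the list with the highest red bar, immune and blood markers, rests on 5 of 25 regions.

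Extracellular matrix genes had 19 of 195 regions more open (9.74%) and 10 less open (5.13%). The 19 include 2 at Egflam that overlap each other. Adamtsl1, a secreted relative of the Adamts proteases, had 4, and its exonic region at chr4:86289009-86290290 had 14.0, 20.7 and 13.5 CPM at E14.5 and 31.8, 42.6 and 32.5 CPM at P0. Fras1, a basement membrane protein whose loss causes renal agenesis, had 3 inside the gene, with ratios from 1.76 to 2.03. Lama1, the laminin chain of early nephron basement membrane, had 2, of which one had 3.10, 5.09 and 1.31 CPM at E14.5 and 9.66, 8.33 and 7.85 CPM at P0.

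Actin and focal adhesion genes stood at 13 of 140 (9.29%), with 8 less open (5.71%). Tns3, a tensin that ties integrins to actin, had 4 and 2 less open, and Palld had 2. The Hippo list, whose kinases hold Yap1 in check, stood at 8 of 91 (8.79%), with 2 less open (2.20%). Fat1, an atypical cadherin, gave 3 of these 8, but 2 of its 3 regions overlap each other and are 1 stretch of chromatin.

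An exonic region of Yap1, the transcriptional co-activator itself, had 15.9, 16.7 and 13.3 CPM at E14.5 and 30.9, 23.7 and 25.1 CPM at P0. The listed insulin, Igf and mTOR genes stood at 8 of 90 (8.89%), with 5 less open (5.56%) and with 2 more open each at Igfbp3 and Irs2. Irs2 is an adaptor of the insulin receptor. A region 32.7 kb from Irs2 had 3.91, 3.09 and 3.81 CPM at E14.5 and 8.58, 11 and 7.14 CPM at P0, without overlap of the stages.

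Regulators of the nephron progenitor itself stood at 12 of 122 (9.84%), with 6 less open, but 7 of the 12 were those of Robo2, and without it the share was 5.43%. Gdnf, the ligand that drives ureteric branching through Ret, had 2 of 10. The one 75.9 kb from its start, in an exon of Wdr70, had 7.81, 15.1 and 12.9 CPM at E14.5 and 21.7, 19.9 and 20.3 CPM at P0. Osr1, a zinc finger factor of the nephrogenic mesenchyme, had 1 of 8, 316.9 kb from its start. It was among the most accessible of the named regions, with 24.9, 37.4 and 15.4 CPM at E14.5 and 62.4, 54.3 and 52.5 CPM at P0. Eya1, a co-activator that acts with Six2 and its relatives, had 1, 151.7 kb from its start. That region had 6.06, 9.88 and 5.52 CPM at E14.5 and 18.5, 13 and 13.1 CPM at P0.

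Genes of early nephron differentiation stood at 10 of 153 (6.54%), with 7 less open (4.58%). Of the 10, 3 lay at Cdh6 and 2 at the Wnt inhibitor gene Dkk1. Pax8, a factor of the first nephron epithelium, had 1, with 4.04, 8.08 and 6.83 CPM at E14.5 and 11.8, 10.1 and 14.4 CPM at P0. The Notch list had 4 of 66 (6.06%) and 0 less open, 1 each at Jag1, Hes1, Hey2 and Rbpj. The Hes1 region, 238.0 kb from this Notch target, had 6.33, 6.09 and 7.75 CPM at E14.5 and 21.9, 15.6 and 18.2 CPM at P0. The Wnt list had 10 of 143 (6.99%) and 5 less open (3.50%), with 1 more open at the receptor gene Fzd6, where levels were 3.50, 5.19 and 2.10 CPM at E14.5 and 6.68, 12.3 and 8.56 CPM at P0.

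Cadherins and protocadherins stood at 18 of 243 (7.41%), with 15 less open (6.17%), and Cdh11, a mesenchymal cadherin, had both 3 more open and 5 less open. Retinoic acid genes stood at 5 of 68 (7.35%), with 2 less open (2.94%), 2 of the 5 at the receptor gene Rarb and 2 at Nrip1, a co-regulator of nuclear receptors. Hypoxia and glycolysis genes stood at 4 of 44 (9.09%), with 2 less open (4.55%), 2 of the 4 nearest to Egln3, a prolyl hydroxylase that acts on hypoxia-inducible factors. Cell cycle inhibitors and G1 genes stood at 3 of 56 (5.36%), with 0 less open, 2 of the 3 nearest to Btg1, an anti-proliferative gene.

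Shares under the background of 5.01% were found for Bmp and Tgf-beta genes (4 of 160, 2.50%), nuclear receptors (2 of 105, 1.90%, with 8 less open), lipid and mitochondrial metabolism (1 of 62, 1.61%), glucocorticoid, thyroid and clock genes (1 of 63, 1.59%) and AP-1 and immediate early genes (1 of 67, 1.49%). The regions of these lists included single ones near Id2 and Ltbp1 for Bmp and Tgf-beta, inside Esr1 and near Nr5a2 for nuclear receptors, within the RefSeq span of Ppargc1a for metabolism and 340.4 kb from Klf9, inside Trpm3, for the clock and hormone list. The Klf9 region had 13.7, 15.0 and 10.5 CPM at E14.5 and 36.2, 38.9 and 29.4 CPM at P0. The list of Lin28 and let-7 timing genes had 5 of 39 (12.8%), but these were the 4 at Mycn and 1 at Myc, and without Mycn the share was 5.00%.

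For some of the regions the nearest gene was a marker of other cells of the kidney, in part far from its start site. Stromal and interstitial markers stood at 12 of 123 (9.76%), with 5 less open (4.07%). Of the 12, 3 were nearest to the homeobox gene Meis1, 303.0 to 343.4 kb from its start. Rarb had 2 inside the gene, and Tbx18 had 2, at 194.0 and 203.7 kb. Immune and blood markers stood at 5 of 25 with 0 less open. Ptprc was the nearest gene of 2, at 134.3 and 219.6 kb, the farther one beside miR-181. Vav1, Cd163 and Runx1 had 1 each, at 13.9 kb, inside the gene and at 128.8 kb. The Vav1 region had 20.6, 17.3 and 18 CPM at E14.5 and 35.5, 35.1 and 34.8 CPM at P0. Endothelial markers stood at 4 of 56 (7.14%), 1 each nearest to Kdr, Esam, Cldn5 and Cdh5. The Kdr region lay 80.8 kb from the start site, and the Cdh5 region inside the gene. The Esam and Cldn5 regions lay 13.8 and 5.3 kb away, inside Msantd2 and Cdc45. Proximal and distal tubule genes had 3 of 40 (7.50%), ureteric markers 4 of 51 (7.84%) and neural and Schwann markers 1 of 44 (2.27%). Podocyte genes had 10 of 127 (7.87%), of which 7 at Robo2, and without it 3 of 97 (3.09%), under the 5.01% over all genes.

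The promoter regions of these marker lists give the level of each list in the isolates without the chosen regions. At 4 of 24 immune genes with a promoter region the summed level was 178 to 186 CPM at E14.5 and 167 to 182 CPM at P0. At 11 of 24 endothelial genes it was 288 to 323 and 295 to 310 CPM, at 18 of 29 stromal genes 571 to 620 and 559 to 706 CPM, and at 17 of 30 progenitor genes 737 to 747 and 740 to 897 CPM. By edgeR 0 of 5 immune, 0 of 12 endothelial, 0 of 19 stromal and 0 of 19 progenitor promoter regions were called, against 0.871% of all promoter regions, and with so few regions a count of 0 is uninformative. Of the 24 promoter regions of early nephron genes, 1 was lower. The stages overlapped in 4 of the 4 ranges. The part of other cells in the regions described was not tested, and in bulk libraries a change in the number of cells of a type and a change within cells cannot be told apart.

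The promoters of the neighbouring genes were not used by the rule, and the same libraries allow a test of them. In edgeR's quasi-likelihood test of P0 against E14.5 over all distinct regions, with Benjamini-Hochberg adjustment and a threshold of 0.05, 118 of 13555 autosomal promoter regions passed (0.871%), 53 higher (0.391%) and 65 lower (0.48%) at P0. Of the 45 genes with at least 3 regions, 40 had a promoter region, 53 such regions in all, and 0 of these passed. At an unadjusted p under 0.05 there were 5 (9.43%), near the 8.87% of all autosomal promoter regions. The 5 are 4 separate promoters, of Arhgap21, Plch1, Ptprd and Smim20, since that of Plch1 is listed with 2 ends 1 base apart, and that of Arhgap21 was the lower one at P0 (log2 fold change -0.60). DESeq2 and limma-voom also called 0, out of 218 and 103 calls over all promoter regions. Without P0 replicate 3 there was 1, at an alternative start of Clvs1, with a log2 fold change of 1.15 and an edgeR adjusted p of 0.0457.

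The estimates at these promoters were mostly positive but small. Their median log2 fold change was 0.11, and 39 of the 53 were positive (73.6%), against a median of -0.11 and 33.1% positive over all autosomal promoter regions. The genes were picked through nearby regions of the same libraries, so these estimates are a description and not independent support. Some of the genes lie on chromosomes 3, 15 and 16. There the median log2 ratio of mean CPM over promoter regions was -0.01, against -0.08 over all autosomes. At genes with at least 3 less open regions 41.7% of promoter regions were positive, with a median of -0.04. The promoter of Robo2 had 63.1 ± 4.63 CPM at E14.5 and 83.8 ± 18.4 CPM at P0 (SD, n = 3 each), a log2 difference of 0.39 (SE 0.22, edgeR adjusted p 0.359). At Robo1 the log2 fold change was 0.30 ± 0.21 (adjusted p 0.485), at Mycn 0.35 ± 0.20 (0.359) and at Spred2 0.10 ± 0.22 (0.857), all from edgeR. None of these 4 promoters passed, which with 3 litters a stage does not show that they were alike.

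Extending to genes with at least 1 region more open at P0, 11 of 1031 promoter regions passed (1.07%, close to the 0.871% of all), 5 higher and 6 lower, and the median log2 fold change was 0.00. Those named next were picked after their values were seen. A promoter region of Tnc, the matrix protein tenascin C, lay at chr4:64021009-64021438, apart from the start site used for distances to Tnc. This promoter region had 2.83, 3.29 and 2.89 CPM at E14.5 and 7.39, 11.2 and 10.4 CPM at P0 (log2 fold change 1.65 ± 0.32, edgeR adjusted p 0.0091). That of Ndfip2, an adaptor of Nedd4 ubiquitin ligases, had 4.85, 3.89 and 3.94 CPM at E14.5 and 17.4, 9.78 and 13.9 CPM at P0 (1.68 ± 0.30, edgeR adjusted p 0.00634). Both sets of libraries were separated by stage. The promoter of Itga4, an integrin chain, had a log2 fold change of 1.21 ± 0.27 (edgeR adjusted p 0.0202). These calls were lost without E14.5 replicate 3, where 12 promoter regions passed in place of 118. The log2 fold changes were then 1.62 for Tnc (adjusted p 0.0659), 1.64 for Ndfip2 (0.0528) and 0.99 for Itga4 (0.121), by edgeR. Without P0 replicate 1 the edgeR adjusted p was 0.0619 for Ndfip2 and 0.104 for Itga4. Promoters of Kcna3 and Ank2 fell by 2.13 and 1.88 on the log2 scale at P0 (edgeR adjusted p 0.00265 and 0.00413, at most 0.0445 under any alternative), although each has a distal region more open at P0 nearby.

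The share of regions more open at P0 differed between chromosomes. It was 8.85% on chromosome 15 (107 of 1209), 7.72% on chromosome 18 and 6.11% on chromosome 16, and 3.22% on chromosome 7 (44 of 1365). Less open regions made up 4.38% on chromosome 15 and 3.31% on chromosome 18. Chromosome 15 took 3.40% to 3.61% of the counts in the E14.5 libraries and 3.74% to 3.87% in the P0 libraries, without overlap. The same held for chromosomes 3, 16 and 18, and the reverse for chromosomes 2, 9 and 11, so 7 of 19 autosomes showed no overlap. The median log2 ratio of the means on this chromosome was 0.24 over distal regions, against 0.13 over all chromosomes, and -0.01 over promoter regions, against -0.08. With the rule applied to any 5 libraries its share stayed above that of all autosomes, at 9.51% against 5.75% without E14.5 replicate 3 and at 22.5% against 14.8% without E14.5 replicate 2. What underlies the difference was not tested.

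**Figure D5:**
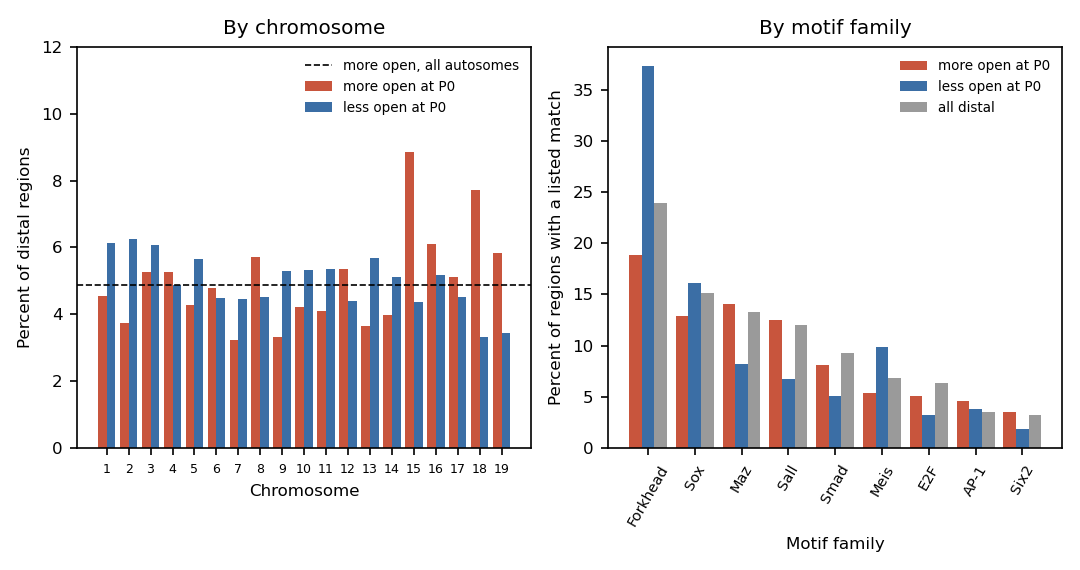
Left, percent of the autosomal distal regions of each chromosome (horizontal axis) that were more open (red) or less open (blue) at P0, with a dashed line at 4.89%. Right, percent of regions with at least 1 listed match to each motif family, for regions more open at P0 (red), less open at P0 (blue) and all autosomal distal regions (grey); the forkhead shares are 18.8%, 37.3% and 23.9%.

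The deposited table lists matches to the motifs of transcription factors, and longer regions hold more of them. The regions more open at P0 had a median length of 1272 bp, against 1365 bp for the less open and 1480 bp for all distal regions. Forkhead matches were listed in 18.8% of them, against 37.3% of the less open and 23.9% of all. The order held in each of 3 length classes: 12.5%, 28.4% and 16.3% in the shortest, 20.9%, 38% and 23.5% in the middle, and 29.6%, 49.5% and 31.8% in the longest. Meis matches, for homeodomain factors of stroma and progenitors, were listed in 5.39%, 9.85% and 6.84%, but in the longest class the regions more open at P0 (9.41%) were not below all distal regions (9.26%).

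In the other direction, matches for Maz, a factor that binds runs of G, were listed in 14.1% of the regions more open at P0, 8.21% of the less open and 13.3% of all. For Sall factors, which include the progenitor regulator Sall1, the shares were 12.5%, 6.70% and 12%, and for Six2 3.52%, 1.85% and 3.21%. In the longest regions the shares were 2.09%, 2.11% and 4.01% for Six2 and 16.7%, 13.2% and 17.2% for Sall, so there the regions more open at P0 were not above all distal regions for either. In the shortest and middle classes they were above them, at 3.44% against 2.51% and 4.52% against 3.12% for Six2, and at 9.39% against 7.12% for Sall in the shortest, with the same order in the middle class. Smad matches, for the effectors of Bmp and Tgf-beta signals, were listed in 8.12%, 5.06% and 9.31%, but in the middle length class the regions more open at P0 (9.68%) were above all distal regions (8.88%). Matches for AP-1 were listed in 4.60%, 3.76% and 3.52%. Pax8 matches were listed in 10 of the regions more open at P0 (0.719%), 0 of the less open and 59 of all (0.207%), while the Pax family as a whole was listed in 4.17%, 3.28% and 4.70% (3.29% against 2.91% of all in the shortest class), with Pax6 at 1.87% against 2.47% of all. Pax8 was singled out after its values were seen.

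Listed enhancers of other collections were not frequent. Enhancers of the FANTOM collection, which are defined by transcription from both strands, were listed in 7.40% of the regions more open at P0, 4.38% of the less open and 8.77% of all. VISTA elements were listed in 9 of the regions more open at P0 (0.647%, against 0.878% of all). Besides those at Plch1 and beside Gm40514, they lay near Actc1, Hdac11 and Smndc1, and inside Meis2, Nfia, Npas3 and Lrmda. The one inside Meis2 had 6.47, 5.69 and 6.83 CPM at E14.5 and 8.58, 9.96 and 8.65 CPM at P0, and the one inside Nfia, a transcription factor gene of glia and kidney, had a ratio of means of 1.73.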

How the data were processed

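Whole-number counts of each open region in 6 libraries were deposited, as named in the file headers (45489 rows, of which 1966 repeated a region). Libraries had 6492996 to 12292629 counts in regions, and 1388 of the 1391 regions described had at least 10 counts in every library. The aligner, peak caller, handling of duplicates and shift for Tn5 are not given in the sources used here. The build mm10 is named in the submitters' processing notes, and RefSeq's GRCm38.p6 supplied gene spans, start windows and microRNAs. For 4392 of 21883 protein-coding genes without a start window both ends of the span were used. The authors' own log2 fold changes, scores and p-values in the deposited table were not used.

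The gene, exon, promoter, motif and enhancer classes are those of the table. Its predicted enhancer targets were not used, because only 0.545% of 183214 pairs of region and target lay on one chromosome. Members and gene lists were chosen with earlier results of these data known. Names were taken from the 20 regions with the largest ratio of lowest P0 to highest E14.5 library, the 20 genes with the most regions, up to 4 genes of each of 27 lists, the 8 groups with the most regions (ties by shorter span, 2 of them on chromosome 18), the promoters of these genes that passed the test and the 3 regions on either side of the threshold; other names were chosen after their values were seen. Items on chromosome 18 were counted, but not described. Some genes and 1 further gene list are not reported here. A motif search of 300 bases around each region was planned and not run, for want of a genome sequence.

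CPM were computed in Python 3.11.15 with pandas 2.3.3 and numpy 2.4.6. The promoter test used edgeR 4.0.16 (R 4.3.3) (TMM, filterByExpr, quasi-likelihood F test, stage as the only term), checked on simulated counts, with DESeq2 1.42.0 and limma 3.58.1 as alternatives. The replicate numbers do not pair the samples: the correlations of same-numbered libraries were 0.067, -0.14 and 0.077. Other alternatives were the ratio, distances, scaling, filters, merging and leaving out each library. Wilson intervals treat regions as independent and cover counting error only.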

Additional observations from a re-analysis of the deposited data

How the results depend on the processing

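The number of regions depends on the ratio: 403 at 1.5 and 4700 at 1. Leaving out 1 library loosens the rule by construction, and the number then ran from 1638 to 4220, the highest when E14.5 replicate 2 was left out, while leaving out the third P0 library gave 2932. Other scalings gave 1454 (totals of all regions) and 1285 (TMM). Genes with at least 3 regions numbered 10 with a start site within 100 kb, 4 at a ratio of 1.5 (Plch1, Robo1, Robo2 and Smim20) and 56 to 396 without 1 library. The share with another region within 50 kb was 9.20% at 25 kb, 23.3% at 100 kb, 7.44% at a ratio of 1.5 and 16.8% to 32.6% without 1 library. The share within genes was 46.3% to 53.4% without 1 library. Of promoter regions at genes with at least 3 regions, 0 to 1 passed without 1 library, and 2 passed at genes with at least 2. With the replicate number as a block 0 passed, and 95 of all promoter regions in place of 118; since the numbers do not pair the samples this is no better estimate. The lowest count of a described region in an E14.5 library was 8, and with 3 litters a stage small promoter differences could not be resolved.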
